A study of Mus musculus with 27 samples.

Results

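Pancreatic islets of 8-week-old NOD mice were compared with islets of 6-week-old NOD mice, on whole-transcript Mouse Gene 1.0 ST microarrays. The comparison took all 9 NOD arrays of the 27 in the series, 3 at 6 weeks and 6 at 8 weeks, and followed 19938 genes that a probe set names alone; where a gene had several such probe sets, the one with the highest mean was used. The mice were untreated females of the NOD/ShiLt strain, kept in a specific-pathogen-free barrier, and each array held the islet RNA of a separate mouse, numbered here as in the labels. Mice of 2 other genotypes on the same background, NOD.Rag1-/- and NOD.Batf3-/-, were measured at the same ages, again with 3 and 6 arrays, and serve below to show where the change in NOD islets differed. Diabetes status was not given in the labels. Rag1 stood at 2.70 to 3.23 in 8-week NOD mice and at 3.63 to 3.93 in 8-week NOD.Rag1-/- mice, and Batf3 at 4.41 to 5.15 in 8-week NOD and 4.33 to 4.66 in NOD.Batf3-/- mice. Where these probes lie relative to the deleted parts was not determined, so they do not check the labels.

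NOD mice develop autoimmune diabetes without treatment: leukocytes collect around and then inside the islets (insulitis), and T cells kill the insulin-producing beta cells. Dendritic cells and macrophages carry beta cell antigens to T cells, and interferon-gamma from T cells raises antigen presentation in the islet. Rag1 is needed to assemble antigen receptor genes, so NOD.Rag1-/- mice lack mature T and B cells. Batf3 is a transcription factor needed by the dendritic cells that cross-present antigen to CD8 T cells.

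As deposited, the arrays did not share one distribution: medians were 5.29 to 5.34 on the log2 scale at 6 weeks and 4.92 to 5.05 at 8 weeks over all genotypes. All 27 arrays were therefore quantile-normalized, which gives every array the same distribution; all values below are log2 intensities after this step, and changes are 8 weeks minus 6 weeks with the standard error (SE) of the limma fit. The labels name no array batch, and every 6-week median lay above every 8-week median. Age therefore cannot be told apart from a technical offset between the arrays of the ages. Such an offset, if shared by the genotypes, would cancel in the difference between the NOD and NOD.Rag1-/- changes. That difference was tested as an interaction. Within an age NOD arrays correlated at 0.980 or more, and between ages at 0.951 to 0.969. In whole islets, fewer cells of a type and less RNA per cell cannot be told apart.

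In NOD islets 3996 genes rose and 3525 fell at an adjusted p under 0.05 (limma with Benjamini-Hochberg adjustment), which is 20.0% and 17.7% of the genes tested (37.7% in all). The arrays of the ages did not overlap for 32.9% of genes, with 16.8% higher and 16.1% lower at 8 weeks. The median change over all genes was 0.03. Of the called genes 53.1% were higher, against 14.7% in the values as deposited, where the median of all genes was -0.27. Past 2-fold, 282 called genes rose and 440 fell. The same test called 33.0% of genes in NOD.Rag1-/- mice (18.2% higher and 14.8% lower) and 31.1% in NOD.Batf3-/- mice (17.2% and 13.9%). The change in NOD islets differed from that in NOD.Rag1-/- islets for 291 genes in the higher direction (1.46%) and 334 in the lower (1.68%), 3.13% in all. It differed from the NOD.Batf3-/- change for 83 genes (0.416%) and 200 genes (1.0%), 1.42% in all. Counts for gene groups below are to be read against these shares. Lists and members were chosen with earlier results of these data known, so their counts are not independent of these data. Genes named for the highest or lowest NOD changes were taken only if called and without overlap between the ages. For these, with Cd3g, Plac8, Ubd, Lum, Cxcl13, Vip and Reg3a among them, the call and the separation follow from that choice.

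T cell genes rose in NOD islets. Of 20 measured T cell markers 15 rose and 0 fell (0 also at an unadjusted p under 0.05), with a median change of 0.85, against 0.23 in NOD.Rag1-/- and 0.16 in NOD.Batf3-/- islets, where 2 rose and 1 fell in the first. Cd3g, a chain of the T cell receptor complex, stood at 2.95, 3.19 and 3.64 in the 6-week mice and at 4.48, 5.86 and 7.77 (lowest, median and highest) at 8 weeks. The ages did not overlap, and mouse 3 was lowest and mouse 5 highest at 8 weeks. The change was 2.75 ± 0.45 (SE, adjusted p = 3.2e-05 by limma), and it exceeded that of NOD.Rag1-/- islets by 2.21 ± 0.63, with an adjusted p of 0.0521. Cd3d, another chain of that complex, rose by 1.90 ± 0.41. Thy1, a surface protein of T cells that fibroblasts also carry, rose by 2.34 ± 0.49.

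Cd8b1 and Icos, a CD8 chain and a costimulatory receptor, rose by 1.14 and 1.05 in NOD islets but also by 0.96 and 0.94 in NOD.Rag1-/- islets, which lack mature T cells. Cd8a, the partner of Cd8b1, ran from 4.32 to 4.75 at 6 weeks and from 4.65 to 6.20 at 8 weeks. Its groups overlapped; the change of 0.74 had an adjusted p of 0.0237, and the call was lost without 6-week mouse 1 or 3 or 8-week mouse 5 or 6 (adjusted p up to 0.116). Cd4, the helper T cell coreceptor, changed by 0.31 (adjusted p = 0.369). By limma 0 T cell markers had a called difference from the NOD.Rag1-/- change, and 7, all higher in NOD, at an unadjusted p under 0.05. Without 8-week mouse 3 the difference was called for Cd3g (2.52, adjusted p = 0.0101), Cd3d (1.95, adjusted p = 0.0247), Thy1 (2.24, adjusted p = 0.0379) and Cd2 (1.85, adjusted p = 0.0248). That mouse had the lowest T cell list mean at 8 weeks (4.24), so its removal raises the list's mean change. This limit also holds for the fits without mouse 3 below.

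Of 15 cytotoxic effector genes 4 rose, a share near the 20.0% of all genes that rose. By limma 0 differed from the NOD.Rag1-/- change, and 2, both lower in NOD, at an unadjusted p under 0.05. The 4 include Gzmk, a granzyme (0.51, but -0.0037 in the values as deposited), and Xcl1, a chemokine of activated CD8 and NK cells (0.83). Ifng, the interferon-gamma gene, changed by 0.23 (adjusted p = 0.397), and the killer granule gene Nkg7 by 1.12 (adjusted p = 0.0552). Of 12 regulatory and checkpoint genes 5 rose, among them the costimulatory receptors Tnfrsf18 (0.78) and Tnfrsf4 (0.70), and only Ikzf2, which encodes Helios, fell (-0.44). Foxp3, the regulatory T cell factor, changed by -0.24 (adjusted p = 0.0569) and Cd274, the ligand PD-L1, by 0.36 (adjusted p = 0.243). Of 10 NK cell genes 5 rose and 1 fell. The activating receptor Klrk1 rose by 0.93, which exceeded the NOD.Rag1-/- change by 0.97 ± 0.23 (adjusted p = 0.0149). Il2rb rose by 0.79 and the NK receptor Ncr1 fell by 0.45. The Xcl1 and Il2rb calls were lost without any 6-week mouse or 8-week mouse 5 or 6, that of Xcl1 also without 8-week mouse 1, that of Ncr1 without 6-week mouse 2 or 3 and that of Ikzf2 without 6-week mouse 2 (adjusted p up to 0.156, 0.163, 0.0952 and 0.0626 in that order). The count of 4 cytotoxic genes was 2 without 6-week mouse 1 or 8-week mouse 5 or 6. The 5 NK genes became 1 to 3 without any 6-week mouse or 8-week mouse 2, 5 or 6, and the 5 regulatory genes 2 or 3 without 6-week mouse 2 or 3 or 8-week mouse 1 or 6.

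B cell genes rose in 10 of 20 cases and fell in 0 (0 also at an unadjusted p under 0.05), with a median change of 0.71 against -0.01 in NOD.Rag1-/- islets. By limma 0 of the 20 had a called difference from the NOD.Rag1-/- change, and 4, all higher in NOD, at an unadjusted p under 0.05. Ms4a1, which encodes CD20, was at 2.43, 2.69 and 2.73 at 6 weeks and at 3.08, 3.76 and 6.10 at 8 weeks. All 8-week mice were above the 6-week mice, and mouse 5 was far above the median. The change was 1.61 ± 0.39 (adjusted p = 0.00186 by limma). Cd22, an inhibitory B cell receptor, rose by 1.31. Cd79a, part of the B cell receptor, rose by 1.74, and by 1.43 in NOD.Batf3-/- islets. Of 9 plasma cell and immunoglobulin genes 4 rose and 3 fell, with a median of 0.50, and by limma 0 had a called difference from the NOD.Rag1-/- change (1 higher and 1 lower at an unadjusted p under 0.05). Tnfrsf17, a receptor of plasma cells, rose by 0.60, and Derl3, a gene of ER-associated degradation, fell by 1.65, beside a change of -1.39 in NOD.Rag1-/- and -1.76 in NOD.Batf3-/- islets. Jchain, the joining chain of secreted IgA and IgM, was at 2.32, 2.58 and 3.95 at 6 weeks and at 3.18, 7.06 and 8.91 at 8 weeks. Its groups overlapped through 8-week mouse 3, and the change was 3.77 ± 0.69 (adjusted p = 0.000136 by limma). Its difference from NOD.Rag1-/- islets was 3.31 (adjusted p = 0.0637), and 4.02 (adjusted p = 0.000498) without 8-week mouse 3, the lowest 8-week mouse. Without 6-week mouse 3, 6 B cell genes rose. Without 8-week mice 5 and 6, left out together after their values were seen, 6 rose and 1 fell, and the median was 0.26.

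Macrophage genes rose in 12 of 22 cases and fell in 0 (1 at an unadjusted p under 0.05), with a median change of 0.61. Adgre1, which encodes the macrophage marker F4/80, was at 3.55, 3.60 and 3.62 at 6 weeks and at 4.50, 4.88 and 5.65 at 8 weeks. The ages were fully apart, and the change was 1.39 ± 0.17 (adjusted p = 4.52e-07 by limma). It also rose in NOD.Rag1-/- (0.68) and NOD.Batf3-/- (0.52) islets. Ms4a7 and Aif1, further macrophage genes, rose by 1.44 and 1.51. A chain of complement C1q, C1qc, rose by 1.16 and lysozyme, Lyz2, by 1.74. Fcer1g, an Fc receptor signalling chain, rose by 0.82, which was 1.36 ± 0.36 above the NOD.Rag1-/- change (adjusted p = 0.0374). That difference was lost in 10 of 18 fits that left out 1 mouse, and the NOD call without 6-week mouse 1. Casp1, the protease that matures interleukin-1 beta, rose by 2.43, and Il1b itself by 1.01.

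Of 14 genes of the Batf3-dependent lineage 7 rose, and of 16 genes of other dendritic cells 9 rose. The 7 include Cd8a, which is also in the T cell list. By limma 0 of the 14 had a called difference from the NOD.Rag1-/- change, and 2 of the 16, both higher in NOD. Clec9a, the dead-cell receptor of the Batf3-dependent lineage, was at 2.78, 2.81 and 2.81 at 6 weeks and at 3.36, 3.96 and 4.23 at 8 weeks. Ranges of the ages were separate. Its change was 1.09 ± 0.16 (adjusted p = 1.28e-05 by limma), and it rose by 0.46 in NOD.Batf3-/- islets (adjusted p = 0.0353). Itgae and Irf8, an integrin and a transcription factor of that lineage, rose by 1.06 and 1.07. Flt3, the receptor for a growth factor of dendritic cells, rose by 1.29 and the chemokine Ccl17 by 1.13. The Flt3 difference from the NOD.Rag1-/- change, 1 of the 2 above, was lost in 14 of 18 fits that left out 1 mouse. Batf3 itself changed by 0.14 (adjusted p = 0.427).

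**Figure D1:**
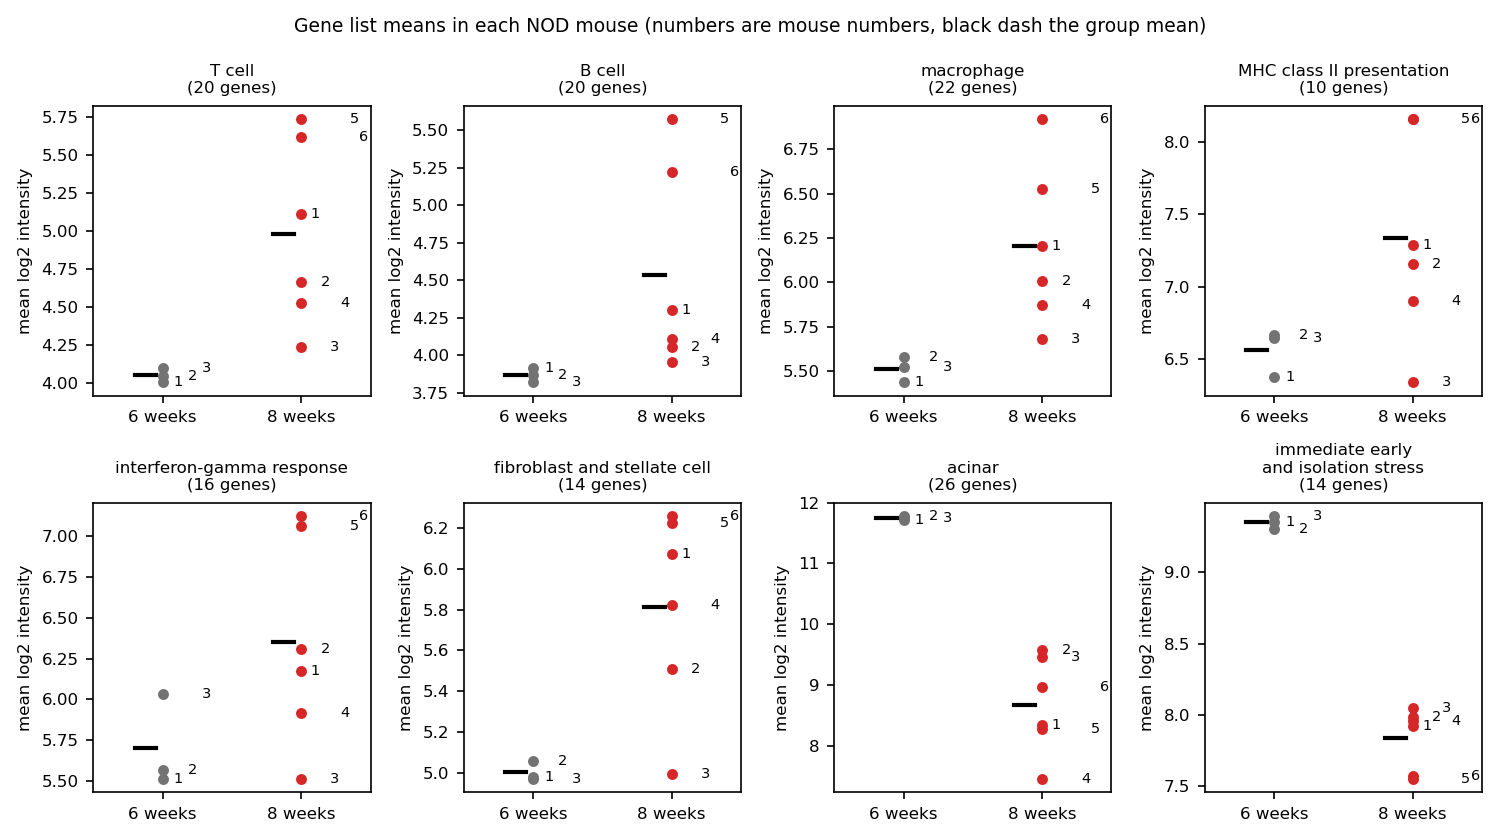
Mean log2 intensity of 8 gene lists (vertical axis) in each NOD mouse at 6 and 8 weeks; points are mice, numbers are mouse numbers and black dashes are group means. For the T cell list the 8-week mice run from 4.24 in mouse 3 to 5.74 in mouse 5, above all 6-week mice, and the acinar and immediate early lists are lower in every 8-week mouse.

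The 8-week mice differed widely from each other in immune genes. The mean of the T cell list was 4.0, 4.04 and 4.10 in the 6-week mice and ranged from 4.24 to 5.74 at 8 weeks. Mice 5 and 6 were highest and mouse 3 lowest, and the same held for the MHC class II, interferon-gamma and fibroblast lists. For MHC class II the 6-week means ran from 6.37 to 6.67, and 8-week mouse 3, at 6.34, was below them. Without 8-week mice 5 and 6 the T cell count was 10 and the macrophage count 9.

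Antigen presentation genes rose in part. Of 10 MHC class II genes 5 rose, with a median of 0.70. By limma 0 had a called difference from the NOD.Rag1-/- change, and 6, all higher in NOD, at an unadjusted p under 0.05. Cd74, the invariant chain, rose by 1.04 and H2-Ab1, a class II chain, by 0.88. Without 8-week mouse 3, 9 of the 10 rose. Without mice 5 and 6, 3 rose. Of 12 MHC class I genes 8 rose and 1 fell. Among them 0 had a called difference from the NOD.Rag1-/- change, and 2, both higher in NOD, at an unadjusted p under 0.05. B2m, the light chain of class I molecules, was at 10.40, 10.83 and 11.02 at 6 weeks and at 10.95, 11.77 and 12.30 at 8 weeks. Only mouse 3 overlapped the 6-week range, and the change was 1.0 ± 0.20 (adjusted p = 0.000401 by limma). The immunoproteasome subunit Psmb9 rose by 0.80 and Psmb10 fell by 0.51. Without 6-week mouse 1 or 2, 4 class I genes rose and the Psmb9 call was lost (adjusted p up to 0.0947). The H2-Ab1 call was lost without those mice or 8-week mouse 5 or 6 (up to 0.126), and the Psmb10 call without 6-week mouse 2 or 3 or 8-week mouse 1, 2, 3 or 4 (up to 0.156).

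Genes of the interferon-gamma response rose in 7 of 16 cases, and only Irf1 fell. By limma only Irf1 had a called difference from the NOD.Rag1-/- change, in the lower direction. Promoters of 3 members are shown, picked because the members rose and carry the core of the interferon-stimulated response element. The windows are the 250 bases before a RefSeq start in GRCm38.p6, on the coding strand: Gbp3 at chr3:142559794-142560043 (plus strand), Gbp5 at chr3:142496684-142496933 (plus strand) and Irgm1 at chr11:48871421-48871670 (minus strand). Capitals mark matches to GAAANNGAAA, the response element core, or TTCNNNGAA, the core of the gamma-activated site, on either strand.
Gbp3: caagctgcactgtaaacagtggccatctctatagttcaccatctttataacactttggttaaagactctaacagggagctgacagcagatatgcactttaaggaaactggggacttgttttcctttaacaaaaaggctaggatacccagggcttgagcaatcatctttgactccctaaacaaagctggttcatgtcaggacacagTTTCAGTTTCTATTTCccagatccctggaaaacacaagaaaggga
Gbp5: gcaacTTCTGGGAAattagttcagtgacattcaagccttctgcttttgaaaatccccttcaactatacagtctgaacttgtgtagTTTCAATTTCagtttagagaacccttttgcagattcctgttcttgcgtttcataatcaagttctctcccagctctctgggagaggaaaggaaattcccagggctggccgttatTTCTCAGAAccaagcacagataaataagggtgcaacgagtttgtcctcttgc
Irgm1: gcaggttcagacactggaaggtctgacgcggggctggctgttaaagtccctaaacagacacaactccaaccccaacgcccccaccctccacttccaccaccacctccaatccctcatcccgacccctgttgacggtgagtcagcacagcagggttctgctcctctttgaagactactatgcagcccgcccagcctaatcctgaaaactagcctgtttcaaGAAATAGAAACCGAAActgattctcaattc

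For Gbp3 the table holds a second start, and its window (chr3:142560106-142560355) has 0 matches. A gene is counted below where any of its windows holds a match. The 2 matches in Gbp3 and the 2 in Irgm1 overlap each other. The response element core lay in 6 of the 10 list members matched to the promoter table (Cxcl10, Gbp3, Gbp5, Gbp7, Irgm1 and Socs1), against 3.46% of all 27025 genes in the table. The gamma-activated core lay in 3 of 10 (Irf1, Gbp5 and Gbp7), against 8.13%. Gbp7 and Socs1 are named for their promoters only, and they and Cxcl10 had no called change in NOD islets. Ubd, the list member with the highest change, had 0 matches in its window. Such a match describes the letters of the window.

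Gbp3, a guanylate-binding protein induced by interferon, was at 4.73, 5.30 and 5.87 at 6 weeks and at 5.09, 5.90 and 7.50 at 8 weeks. The groups overlapped. Its change was 0.89 ± 0.35 (adjusted p = 0.0456 by limma), and the changes of Gbp5 and Irgm1 were 0.86 (adjusted p = 0.0377) and 0.73 (adjusted p = 0.046). All 3 calls were lost without 6-week mouse 1 or 2 or 8-week mouse 5 or 6, and those of Gbp5 and Irgm1 also without 8-week mouse 1 or 2. The highest adjusted p was 0.254, 0.203 and 0.197 in that order. The count of 7 fell to 2 without 6-week mouse 1 or 2 and to 3 without 8-week mouse 5 or 6. Ubd, a ubiquitin-like modifier induced by interferon-gamma, was at 2.72, 3.03 and 3.09 at 6 weeks and at 3.34, 5.13 and 7.56 at 8 weeks. The ages did not overlap, and the change was 2.54 ± 0.49 (adjusted p = 0.000211 by limma).

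Irf1, an interferon-induced transcription factor, fell by 0.40 in NOD islets and rose by 0.41 in NOD.Rag1-/- islets. Its call in NOD was lost without 6-week mouse 2 or 3 or 8-week mouse 3 or 4 (adjusted p up to 0.163). The chemokines Cxcl9 and Cxcl10 changed by 0.77 (adjusted p = 0.146) and 0.51 (adjusted p = 0.248). Of 21 type I interferon genes 7 rose, among them Rtp4 (0.92) and Ifi27l2a (1.22). That count was 3, 1 and 4 without 6-week mouse 1, 2 and 3, and 4 without 8-week mouse 5 or 6. The Ifi27l2a call was lost without 6-week mouse 1 or 2 or 8-week mouse 5 or 6 (adjusted p up to 0.154).

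Of 24 chemokine genes 9 rose and 1 fell. By limma only Cxcl2 had a called difference from the NOD.Rag1-/- change, in the lower direction. Cxcl13, which draws B cells into lymphoid follicles, was at 3.72, 3.77 and 4.09 at 6 weeks and at 4.80, 5.83 and 8.52 at 8 weeks. Ranges of the ages were separate, and the change was 2.55 ± 0.52 (adjusted p = 0.000406 by limma). Ccl19, a T cell zone chemokine, rose by 1.88 and Ccl8 by 2.56. Cxcl1, a neutrophil chemokine, rose in all genotypes (0.83 in NOD, 1.11 and 1.54 in the others). Cxcl2, its close relative, fell by 0.91 in NOD and rose by 0.92 in NOD.Rag1-/- islets; the NOD call was lost without 6-week mouse 3 or 8-week mouse 6. Ltb, which encodes lymphotoxin beta, rose by 1.14. Of 13 genes of lymphoid tissue organization 8 rose and 2 fell. By limma 0 of these 13, and 0 of the 12 adhesion genes, had a called difference from the NOD.Rag1-/- change. Of 12 adhesion genes 6 rose, including Vcam1 (1.07) and the integrin chain Itgb2 (0.98), and the count was 2 or 3 without 6-week mouse 1 or 3 or 8-week mouse 5 or 6. Of 11 complement genes 7 rose and 1 fell, and 4 rose without 6-week mouse 1. C1s1 rose by 2.58 and Cfb by 1.02. The calls of Vcam1 and Cfb were lost without 6-week mouse 1 (adjusted p = 0.0694 and 0.0522).

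**Figure D2:**
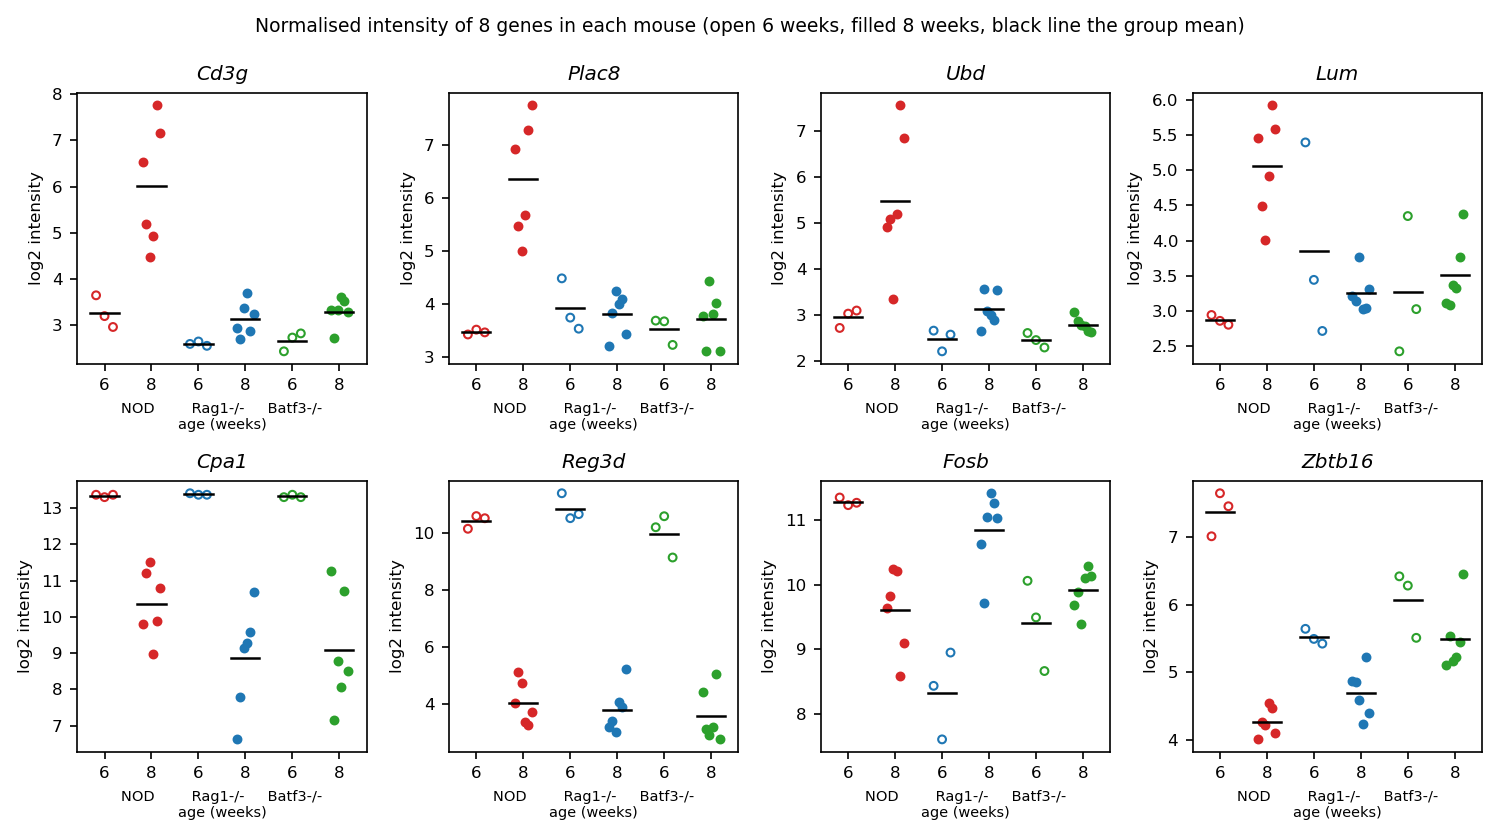
Log2 intensity (vertical axis) of 8 genes in each mouse of the 3 genotypes at 6 and 8 weeks; open points are 6 weeks, filled points 8 weeks, black lines group means. For Cd3g the NOD 6-week mice end at 3.64 and the NOD 8-week mice begin at 4.48.

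Stromal genes rose in part. Of 14 fibroblast and stellate cell genes 9 rose, with a median of 0.56 against -0.11 in NOD.Rag1-/- islets, and 4 (Lum, Postn, Col3a1 and Acta2) differed from the NOD.Rag1-/- change. The differences of Postn and Col3a1 were each lost in 13 of 18 fits that left out 1 mouse. Acta2 is named here after its values were seen. Its own change in NOD islets was not called, and it was not among the 174 genes refitted without single mice. Thy1 is in this list and in the T cell list. Lum, a collagen-binding proteoglycan, was at 2.80, 2.86 and 2.94 at 6 weeks and at 4.01, 5.19 and 5.92 at 8 weeks. The ages did not overlap. Its change was 2.20 ± 0.44 (adjusted p = 0.000321 by limma), and it exceeded the NOD.Rag1-/- change by 2.80 ± 0.62 (adjusted p = 0.00991, and 0.052 without NOD.Rag1-/- 6-week mouse 1). That mouse was at 5.39, and the other 6-week NOD.Rag1-/- mice were at 3.44 and 2.71. Dcn, Postn and Col3a1, further matrix genes, rose by 1.95, 1.10 and 0.72. The Dcn call was lost without 6-week mouse 2 and that of Postn without 6-week mouse 3 (adjusted p = 0.0644 and 0.0874). The list mean at 8 weeks was lowest in mouse 3, at 4.99, and highest in mouse 6, at 6.26, as for the immune lists. Without 8-week mice 5 and 6, 5 fibroblast genes rose. Of 12 endothelial genes 4 rose, among them Pecam1 (0.80), Kdr (0.78) and Eng (0.44), and 2 without 6-week mouse 2, when Eng was among the calls lost (adjusted p = 0.0583). Of 8 adipocyte genes 2 rose and 1 fell, with a median of 0.03, and Fabp4 rose by 1.01.

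Acinar genes fell in all genotypes. All 26 measured acinar genes fell in NOD islets, with a median of -3.24, and all 26 fell in both other genotypes, with medians of -4.54 and -4.46. By limma 0 differed in change between NOD and NOD.Rag1-/- islets, and 1 at an unadjusted p under 0.05. Cpa1, a carboxypeptidase of pancreatic juice, was at 13.30, 13.37 and 13.37 at 6 weeks and at 8.97, 10.34 and 11.51 at 8 weeks. The ages were fully apart, with mouse 4 lowest. The change was -2.98 ± 0.73 (adjusted p = 0.00209 by limma). Ptf1a, the acinar transcription factor, fell by 2.29. The gastrointestinal protein gene Tff2 fell by 5.41. Of 10 duct genes 8 fell, against 5 in NOD.Rag1-/- and 7 in NOD.Batf3-/- islets, among them Krt19 (-1.70), Sox9 (-0.91) and Muc1 (-3.84). Krt8 fell by 1.0 in NOD islets and changed by -0.02 in NOD.Rag1-/- islets, a difference of -0.98 ± 0.21 (adjusted p = 0.00745). The amount of exocrine tissue carried along in an islet preparation was not measured, and its part in other changes was not tested.

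The lowest change among all genes was that of Reg3a, one of the Reg family, secreted lectins of acinar and regenerating pancreas. Of 7 members 6 fell. Reg3a was at 9.75, 9.80 and 9.82 at 6 weeks and at 2.63, 3.00 and 3.79 at 8 weeks. Every 8-week mouse was far below, and the change was -6.63 ± 0.78 (adjusted p = 3.63e-07 by limma). Reg3b and Reg3d fell by 6.36 and 6.4. Reg3g fell by 2.61 in NOD and by 7.15 in NOD.Rag1-/- islets, a difference of 4.55 ± 0.57 (adjusted p = 1.4e-05). Only Reg4 was not called (-0.07).

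Beta cell genes rose in part on the quantile-normalized scale. Of 21 beta cell genes 11 rose and 1 fell, with a median of 0.30 against 0.45 in NOD.Rag1-/- islets, where 15 rose. Ins2, an insulin gene, was at 12.42, 12.42 and 12.45 at 6 weeks and at 12.68, 12.77 and 12.83 at 8 weeks. Ranges of the ages were separate, and the change was 0.33 ± 0.07 (adjusted p = 0.000305 by limma). This direction depends on the scaling: it was -0.47 in the values as deposited, -0.12 with equal array medians and -0.15 with cyclic loess. Iapp (0.45), Chga (0.54), Ucn3 (0.54), G6pc2 (0.36) and Pdx1 (0.44) rose, and Isl1 fell by 0.40. Iapp, Chga and G6pc2 were also below 0 in the values as deposited, and the 11 rises and 1 fall became 1 and 5 there, 9 and 0 with equal medians and 6 and 1 with cyclic loess. Without 6-week mouse 2, 7 beta cell genes rose and the G6pc2 call was lost (adjusted p = 0.0912). Gcg, the glucagon gene, changed by 0.08 (adjusted p = 0.587), and Sst, the somatostatin gene, rose by 0.61 (-0.05 in the values as deposited). Of 11 autoantigen genes 6 rose, against 2 with equal medians, 2 with cyclic loess and 0, with 3 falls, in the values as deposited. The neuropeptide gene Npy and the cell cycle inhibitor Cdkn2a rose by 0.95 and 0.91, with rises in both other genotypes too.

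Immediate early genes are switched on quickly by stress or handling. All 14 measured fell in NOD islets, with a median of -1.45, while in NOD.Rag1-/- islets 7 rose and 1 fell and in NOD.Batf3-/- islets 1 rose and 2 fell. The difference from NOD.Rag1-/- islets was called for 12 and that from NOD.Batf3-/- islets for 10. Fosb, a subunit of the AP-1 factor, was at 11.23, 11.27 and 11.35 at 6 weeks and at 8.59, 9.73 and 10.25 at 8 weeks. The ages did not overlap. It fell by 1.68 ± 0.35 (adjusted p = 0.000558 by limma) and rose by 2.52 in NOD.Rag1-/- islets, a difference of -4.20 ± 0.50 (adjusted p = 8.84e-06). Atf3, a stress-induced factor, fell by 3.22, Ier2 by 2.46 and Dusp1, a phosphatase of MAP kinases, by 1.92.

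**Figure D3:**
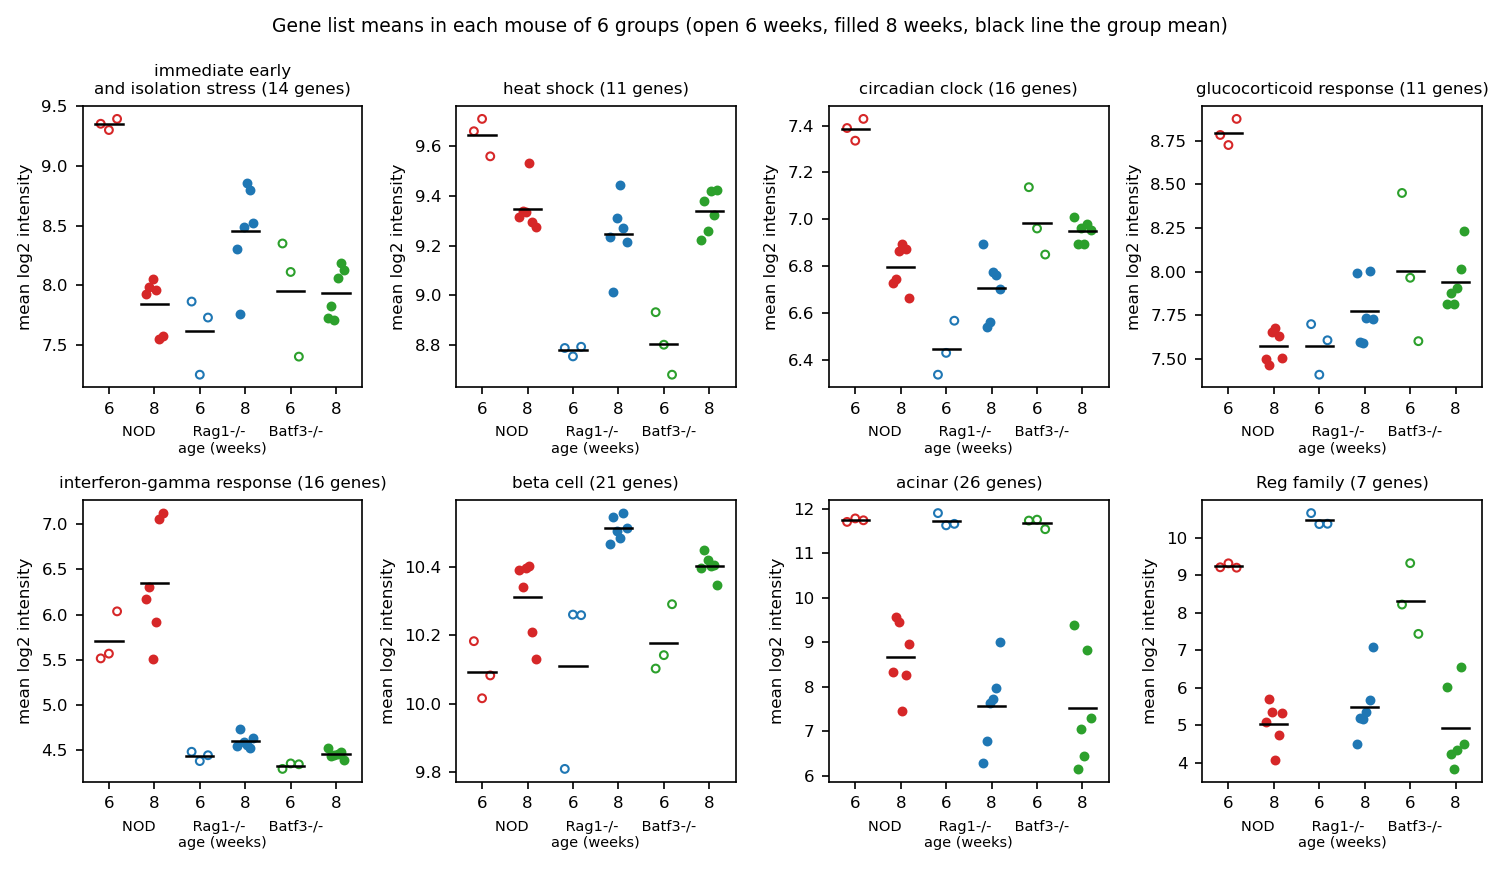
Mean log2 intensity of 8 gene lists (vertical axis) in each mouse of the 3 genotypes at 6 and 8 weeks; open points are 6 weeks, filled points 8 weeks, black lines group means. The 3 NOD mice at 6 weeks lie above all other mice for the immediate early, heat shock, circadian clock and glucocorticoid lists.

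The 6-week NOD mice stood apart for these genes. Their immediate early list means were 9.30, 9.35 and 9.39, against group means of 7.61 and 7.95 in NOD.Rag1-/- and NOD.Batf3-/- mice of that age and 7.94 to 8.46 in those genotypes at 8 weeks. Of 11 heat shock genes 5 fell and 2 rose in NOD islets, while 8 rose and 2 fell in each of the other genotypes. By limma 6 differed from the NOD.Rag1-/- change, all in the lower direction. Dnajb1, a co-chaperone, fell by 0.95 in NOD islets and rose by 1.48 in NOD.Rag1-/- islets. Hspa1a, an inducible HSP70, rose by 0.97 in NOD and by 2.35 and 2.70 in the others. Of 11 glucocorticoid response genes 9 fell and none rose, and 8 differed from NOD.Rag1-/- islets. Dusp1 is also in the immediate early list, and Per1 also in the circadian clock list. Zbtb16, a glucocorticoid-induced factor, was at 7.01, 7.46 and 7.65 at 6 weeks and at 4.01, 4.23 and 4.54 at 8 weeks. The ages were far apart, and the change was -3.11 ± 0.24 (adjusted p = 3.07e-10 by limma). Fkbp5 and Tsc22d3 fell by 1.33 and 1.58. Handling and time of collection were not given, and their part in these changes was not tested.

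Of 16 circadian clock genes 11 fell and 2 rose, and 10 differed from NOD.Rag1-/- islets. Per1, a repressor of the clock, was at 8.80, 8.89 and 9.13 at 6 weeks and at 7.27, 7.48 and 7.62 at 8 weeks. Ranges of the ages were separate, and the change was -1.48 ± 0.19 (adjusted p = 1.12e-06 by limma). Per2, Cry2, Nr1d1 and Dbp, other arms of the clock, fell by 1.02, 1.11, 1.07 and 0.69. Arntl, which encodes the activator BMAL1, rose by 1.07 and fell by 0.63 in NOD.Rag1-/- islets, and Clock, its partner, rose by 0.50.

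Of 19 genes of the unfolded protein response 8 fell and 4 rose in NOD islets, with a median of -0.11. In NOD.Rag1-/- islets 5 fell and 5 rose (median -0.02), and in NOD.Batf3-/- islets 8 fell and 1 rose (-0.30). By limma 3 differed from the NOD.Rag1-/- change, all in the lower direction. Atf3 is in this list and in the immediate early list. Herpud1, a component of ER-associated degradation, fell by 2.04 in NOD islets, Ddit3, which encodes CHOP, by 1.29, and Atf4 by 0.87. Edem1 fell by 1.09, with like falls in the other genotypes. Dnajb9, an ER co-chaperone, rose by 0.71. The 4 rises were 2 without 6-week mouse 1 or 3.

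**Figure D4:**
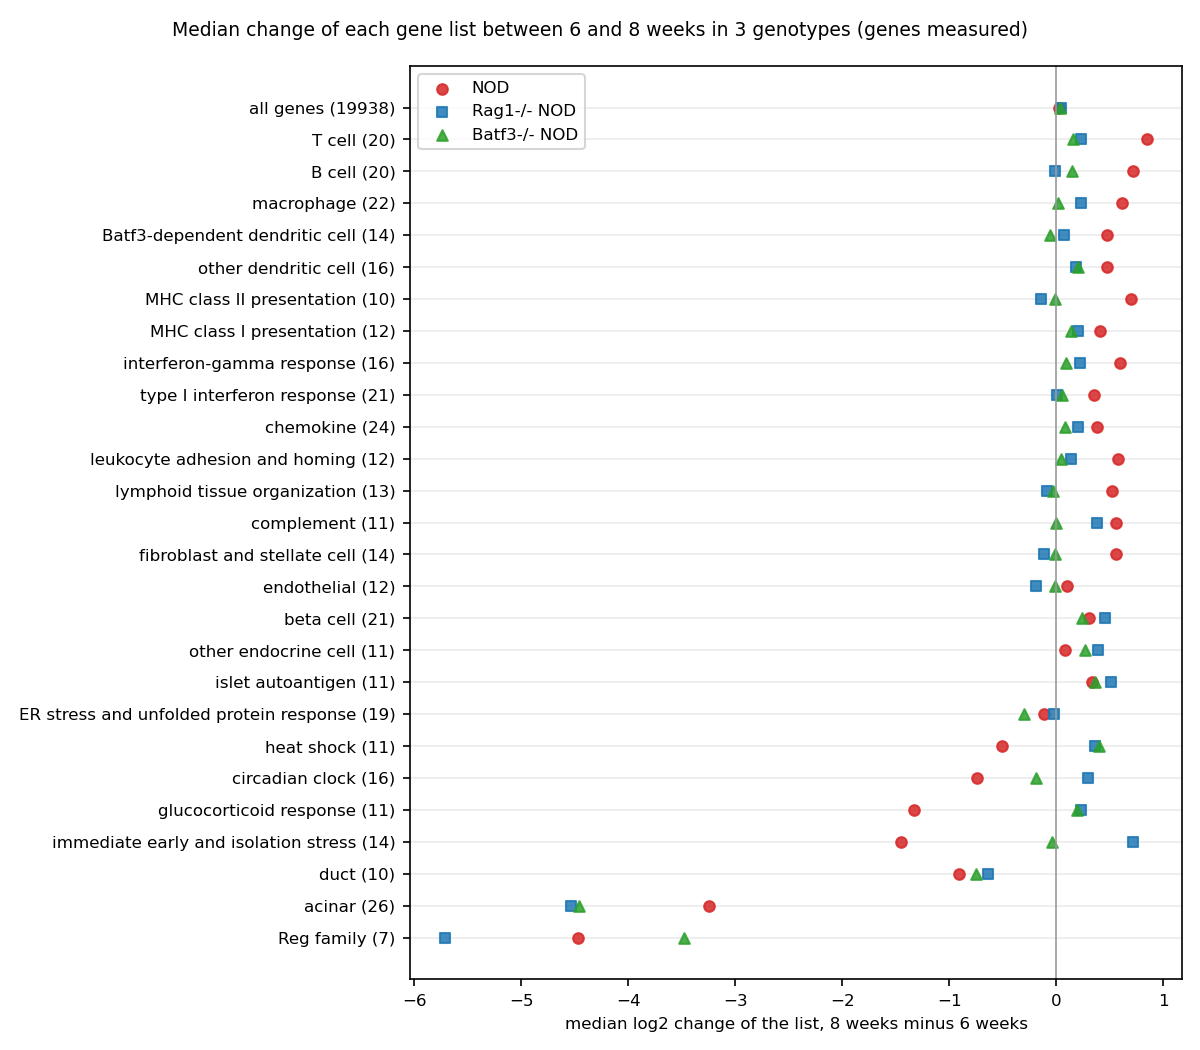
Median log2 change from 6 to 8 weeks (horizontal axis) of each gene list in the 3 genotypes; each point is a list's median in 1 genotype. The T cell list lies at 0.85 in NOD and the acinar list at -3.24, and the immediate early list at -1.45 in NOD against 0.72 in NOD.Rag1-/- islets.

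The difference from the NOD.Rag1-/- change separated several single genes. Plac8, a leukocyte gene, was at 3.43, 3.47 and 3.52 at 6 weeks and at 5.01, 6.30 and 7.75 at 8 weeks. The ages did not overlap. It rose by 2.88 ± 0.41 (adjusted p = 6.73e-06 by limma), which exceeded the NOD.Rag1-/- change by 3.00 ± 0.59 (adjusted p = 0.00331). Cyba, a subunit of the NADPH oxidase, rose by 1.23, 2.07 above. For C4b, a complement component, the NOD change was 0.20 (adjusted p = 0.726) and the NOD.Rag1-/- change -2.71, so the difference of 2.91 lay in the latter. The same held for Lgals9 (-0.21 and -2.32), Sulf2 (0.15 and -1.75) and Mgst1 (-0.36 and -2.33), though the Mgst1 difference was lost without 6-week mouse 2 or NOD.Rag1-/- 6-week mouse 1. Vip, a neuropeptide gene, was at 2.82, 2.87 and 3.05 at 6 weeks and at 3.77, 6.76 and 7.81 at 8 weeks. Ranges of the ages were separate, and the change of 3.42 ± 0.69 (adjusted p = 0.000339 by limma) differed from that of NOD.Rag1-/- islets by 3.06, with an adjusted p of 0.0859 (3.57, adjusted p = 0.014 without 8-week mouse 3). Rises shared by all genotypes included Zfp273 (1.73, 1.52 and 1.35), Rab42 and Mgst2.

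**Figure D5:**
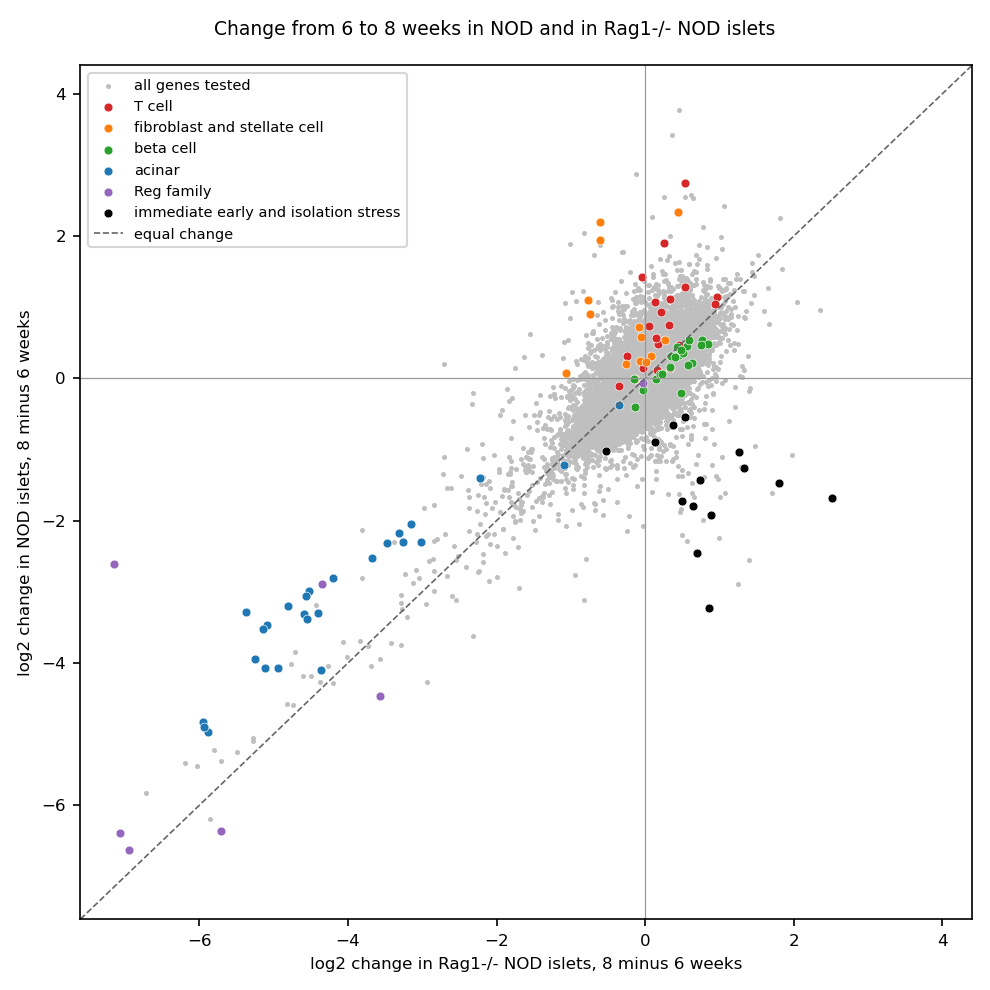
Log2 change from 6 to 8 weeks in NOD islets against that in NOD.Rag1-/- islets; each point is a gene. Reg3a lies at -6.63 in NOD and -6.95 in NOD.Rag1-/- islets, and Fosb at -1.68 and 2.52.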

How the data were processed

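The deposited values are log2 intensities that the authors made by robust multi-array averaging (RMA), per the series' design text and the submitters' processing notes, which also name Affymetrix Expression Console and mm9 without a role. Of 30177 probe sets 21789 had 1 gene symbol, 1621 several and 6767 none. All 27 arrays were quantile-normalized, and limma 3.58.1 in R 4.3.3 was fitted over 6 groups (genotype by age) with Benjamini-Hochberg adjustment over 19938 genes at 0.05. The number of arrays limits the precision. No table column lacked a sample (0 columns).

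Genes named are the 15 highest and 15 lowest NOD changes whose ages do not overlap, the 15 highest and lowest differences from NOD.Rag1-/- (predicted genes and receptor segments left out), called or leading members of each list, and a few always named; not all of these are printed. Members and lists were chosen with earlier results of these data known. Some genes are in several lists, among them Dusp1, Per1, Atf3, Cxcl13, Ccl19 and C1qc, so the list counts are not separate results. Same-numbered NOD mice of the 2 ages did not deviate together (correlations -0.05 to 0.01), and the main fit did not pair them. This check cannot exclude a shared origin of same-numbered mice. Promoter sequences are from RefSeq, GRCm38.p6. Alternatives were other scalings, variances, filters, probe set rules, arrays in the fit and leaving out each mouse. The fit was tested on simulated data that held no offset between the arrays of the 2 ages, so that test does not bear on such an offset. Some genes are not reported here.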

Additional observations from a re-analysis of the deposited data

Results flagged for a closer look

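Among 215 sets of values checked (174 genes and 41 list means), 8 genes and 2 list means had an 8-week NOD mouse far from the other five; chance gives about 1 in 20 such groups. Sst was highest in mouse 1 at 13.30, Hspa1a in mouse 4 at 10.99, S100b in mouse 5 at 4.45 and Muc1 in mouse 2 at 5.39. Ngp was lowest in mouse 1 at 2.69, Atf4 in mouse 1 at 8.56, Ccl17 in mouse 4 at 4.63 and G6pc2 in mouse 6 at 11.91. The mean of the other endocrine cell list was lowest in mouse 5 at 9.55, and that of the heat shock list highest in mouse 4 at 9.53.

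For 58 of the 174 genes the NOD change differed from the NOD.Rag1-/- change (limma interaction), 24 in the higher direction and 34 in the lower. The lower differences in log2 were Fosb -4.20, Atf3 -4.08, Npas4 -3.31, Nr4a1 -3.28, Gem -3.23, Ier2 -3.15, Klf6 -2.85, Dusp1 -2.80, Rhob -2.77, Junb -2.60, Rgs2 -2.53, Fos -2.43, Jun -2.30, Zfp36 -2.21 and Egr1 -2.17. The remaining lower differences were Fam71a -4.13, Polg2 -3.96, Dnajb1 -2.43, Zbtb16 -2.28, Cry2 -2.15, Per1 -2.11, Fkbp5 -1.90, Cxcl2 -1.84, Ddit3 -1.79, Nr1d1 -1.78, Hsph1 -1.61, Hspa1a -1.38, Per2 -1.26, Dbp -1.25, Herpud1 -1.16, Krt8 -0.98, Tsc22d3 -0.97, Irf1 -0.81 and Ikzf2 -0.70. The higher differences were Reg3g 4.55, Plac8 3.00, C4b 2.91, Dpt 2.86, Lum 2.80, Clec2d 2.18, S100a6 2.15, Lgals9 2.11, Cyba 2.07, Mgst1 1.98, C1s1 1.96, Lrg1 1.94, Sulf2 1.90, Postn 1.87, Sting1 1.86, Arntl 1.71, Fabp4 1.45, Fcer1g 1.36, Pecam1 0.98, Eng 0.97, Klrk1 0.97, Flt3 0.94, Col3a1 0.81 and Tnfrsf4 0.79. Fam71a neighbours Atf3, and Polg2 neighbours Ddx5, in the RefSeq gene order.

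Some of these calls were lost when 1 mouse was left out. The number of 18 fits without 1 mouse in which the call was lost was 15 for Ikzf2, 14 for C1s1, 14 for Flt3, 14 for Tnfrsf4, 13 for Col3a1, 13 for Postn, 12 for Dpt, 11 for Fabp4, 10 for Fcer1g, 6 for Lrg1, 3 for Irf1, 2 for Cxcl2, 2 for Mgst1, 2 for S100a6, 2 for Sting1, 1 for Lum and 1 for Pecam1. The 6-week NOD.Rag1-/- mouse 1 is among the mice for each of them except Cxcl2. The others of the 58 kept their calls in all 18 fits.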

How the results depend on the processing

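In the values as deposited 1602 genes rose and 9284 fell in NOD islets, where every 6-week array median lay above every 8-week one. There the changes of Gzmk (-0.0037), Ins2 (-0.47), Gcg (-0.29), Sst (-0.0502), Chga (-0.18), Iapp (-0.24), G6pc2 (-0.17) and Rag1 (-0.47) turned below 0. Ins2 also turned with equal medians (-0.12) and cyclic loess (-0.15). With only the compared arrays in the fit, 174 genes had a higher change than in NOD.Rag1-/- islets and 188 differed from NOD.Batf3-/- islets. With dim genes left out (11668 tested), 2146 fell in NOD, 443 differed from NOD.Batf3-/- and 4133 changed in NOD.Batf3-/- mice. With mice 1 to 3 only and the replicate number as a block, the differences were 41 higher and 94 lower from NOD.Rag1-/- and 49 from NOD.Batf3-/-; without the block they were 87, 146 and 82. Leaving out 1 array gave 2998 to 3872 higher and 2686 to 3459 lower genes in NOD. It gave 158 to 407 higher and 205 to 351 lower differences from NOD.Rag1-/-, 107 to 359 from NOD.Batf3-/-, and 4441 to 6339 and 4363 to 5966 called genes in those genotypes. Of the 174 genes, single calls were lost 85 times in NOD over these fits. The causes of these shifts were not tested, and some of these settings hold fewer genes or arrays. Under the values as deposited the 15 T cell rises were 7, with 2 falls, and the 5 MHC class II rises 3. The 7 rises of the Batf3-dependent list were 2 there, with 1 fall, and the 9 of other dendritic cells 5, with 2 falls. The 4 endothelial rises were 3 there, with 3 falls, and the 4 plasma cell rises 1, with 3 falls. The 8 MHC class I rises were 6 under the deposited values, the 7 complement rises 4 and the 9 fibroblast rises 5. Rises and falls there were 0 and 2 for adhesion, 0 and 3 for cytotoxic, 3 and 3 for B cell, 2 and 2 for interferon-gamma, 1 and 2 for type I interferon, 1 and 2 for NK cell, 1 and 4 for regulatory, 2 and 4 for lymphoid tissue, 6 and 4 for chemokine, 11 and 4 for macrophage and 0 and 3 for autoantigen genes. The direction of a list against all genes turned under some scaling for the neutrophil, other endocrine, beta cell maturation, Schwann, adipocyte, red blood cell and oxidative phosphorylation lists.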

Other observations

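Several lists not described above were also counted in NOD islets. Of 13 cholesterol synthesis genes 5 rose and 1 fell (median 0.10), of 14 hypoxia and glycolysis genes 4 rose and 2 fell (0.07), and of 21 oxidative phosphorylation genes 4 rose and 6 fell (-0.02). The last count was 11 and 1 with equal array medians (median 0.22) and 2 and 9 in the values as deposited (-0.12). Of 16 ribosomal protein genes 2 rose and 6 fell (-0.07). Of 17 cell cycle genes only Cdk1 fell (-0.83, not called without 6-week mouse 2). Of 12 neutrophil genes Ngp rose (0.58) and Elane fell (-0.53), and none of 4 red blood cell genes was called. S100b, a glial gene, was the only one of 5 Schwann cell genes to rise (1.29), and it also rose in NOD.Rag1-/- (0.83) and NOD.Batf3-/- (0.98) islets.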
